A study of Mus musculus with 6 samples.

Results

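Fragments of the nuclear-encoded glutamine transfer RNA (tRNA-Gln) were taken from a small RNA table of cultured mouse cells. The cells were primary smooth muscle cells of the pulmonary artery, which give tone to the wall of the vessels that carry blood to the lungs. A sequence was counted as a member when every annotation the table gives it was a mature nuclear tRNA-Gln, written mature-tRNA-Gln-CTG or mature-tRNA-Gln-TTG after the anticodon, or both of these. By that rule 2285 of the 38798 distinct sequences in the table were members, and 0 sequences were shared between nuclear tRNA-Gln and another tRNA. The hypoxia group held 3 libraries of wild-type cells kept at 3% oxygen for 24 hours, and the normoxia group held 3 libraries of wild-type cells kept under standard culture conditions. The design text calls the 3 libraries of each group biological replicates. RNA of all 6 libraries was treated with enzymes before library construction by the Pandora-seq strategy, which strips modifications that block adapter ligation or reverse transcription. The table holds tRNA-derived sequences, so the marker genes of smooth muscle were not analysed here.

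Transfer RNA pairs its anticodon with a codon in messenger RNA and brings the matching amino acid to the ribosome. The cytosolic tRNA-Gln with anticodon CTG reads the glutamine codon CAG, and the one with anticodon TTG reads CAA and can also read CAG by wobble pairing. Both are charged by glutaminyl-tRNA synthetase, and mitochondria use a tRNA-Gln of their own. Nucleases cut mature tRNAs into shorter pieces. Angiogenin is the best known of them and cuts in the anticodon loop of stressed cells, which gives long 5' and 3' pieces, whereas pieces with neither end of the mature tRNA are called internal fragments. The CCA tail is added to every tRNA after transcription and carries the amino acid.

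The fragments overlap, so full-length sequences were rebuilt by joining deposited 5' fragments to deposited 3' fragments at the gene length of 72 bases. RefSeq lists 16 nuclear tRNA-Gln genes on GRCm38, 10 with anticodon CTG and 6 with anticodon TTG, on chromosomes 3, 9, 11, 13 and X, with 7 of them on chromosome 13. Each spans 72 bases, as does n-TQctg5 on chromosome 3 from 96341156 to 96341227 and n-TQttg1 on chromosome X from 13859166 to 13859237. A fragment cannot be traced to 1 gene, because the copies share most of their bases. Joining gave 12 sequences, of which 2 are shown to place the starts and ends described afterwards, both with 7 paired bases between their 5' and 3' ends. The joined TTG sequence need not be a single gene. Capitals mark the anticodon at positions 34 to 36, counted from 1 at the 5' end.
tRNA-Gln-CTG: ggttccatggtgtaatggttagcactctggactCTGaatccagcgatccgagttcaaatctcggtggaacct
tRNA-Gln-TTG: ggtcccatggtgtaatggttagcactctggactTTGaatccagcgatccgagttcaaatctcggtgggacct
In all 12 joined sequences the D stem could pair bases 10 to 13 with bases 22 to 25, the anticodon stem bases 27 to 31 with bases 39 to 43, and the T stem bases 48 to 52 with bases 60 to 64. The D loop then runs from 14 to 21, the anticodon loop from 32 to 38 and the T loop from 53 to 59. Exact matching to these sequences, followed by CCA at positions 73 to 75, placed 2235 members.

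The most abundant members carry the main starts and ends and are shown for that reason, each with its start and end in the joined sequences, capitals marking the anticodon or the CCA tail and a member with neither having none.
Member 24 to 41: actctggactCTGaatcc
Member 19 to 33: ttagcactctggact
Member 21 to 41: agcactctggactCTGaatcc
Member 14 to 41: aatggttagcactctggactCTGaatcc
Member 17 to 33: ggttagcactctggact
Member 1 to 41, CTG: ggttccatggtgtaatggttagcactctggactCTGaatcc
Member 1 to 33, TTG: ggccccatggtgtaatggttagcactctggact
Member 24 to 55, TTG: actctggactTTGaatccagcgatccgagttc
Member 58 to 75, CTG: atctcggtggaacctCCA
Member 58 to 75, both anticodons: atctcggtgggacctCCA
The first 5 are the highest by mean level over the 6 libraries. The member from 1 to 41 is the most abundant 5' fragment and the most abundant of at least 30 bases from tRNA-Gln-CTG, and the member from 1 to 33 holds both places for tRNA-Gln-TTG.

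The total counts per library in the table were 510519, 2563749 and 1713960 in hypoxia 1, 2 and 3, against 330787, 2217965 and 1629726 in normoxia 1, 2 and 3. The libraries numbered 1 stood apart from the other four in depth and in fragment make-up: 5' end fragments of all tRNAs took 36.6% of the counts in hypoxia 1 and 34.6% in normoxia 1, against 52.96% to 58.6% in the other libraries. Over all sequences with enough counts to test, the libraries numbered 1 deviated together (correlation 0.81). Numbers 2 and 3 taken alone did not pair (correlation −0.03), and the sample titles state no pairing. Values are also given within each pair of the same number. The part that depth or library preparation plays in these differences was not tested.

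No difference in the abundance of tRNA-Gln fragments between hypoxic and normoxic cells was larger than the wide spread between replicates. They made up 4.99%, 11.4% and 8.71% of all counts in hypoxia 1, 2 and 3, against 5.38%, 10.3% and 9.71% in normoxia 1, 2 and 3. In CPM, counts scaled to 1000000 per library, they averaged 83568 ± 32062 in the hypoxia group and 84660.1 ± 26927 in the normoxia group (SD, n = 3 each, two-sided exact permutation test, p = 1). With 3 libraries a group the smallest p this test allows is 0.1. The groups overlapped, hypoxia was higher in 1 of 3 pairs, and both libraries numbered 1 were the lowest of their group. In bulk RNA, fewer cells with these fragments and less of them per cell cannot be told apart. Counts were made without molecular identifiers, so any interval from counting covers counting error only.

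By anticodon, 1366 members came from tRNA-Gln-CTG alone and held 59.2% of member counts, 665 came from tRNA-Gln-TTG alone with 9.36%, and 254 fitted both anticodons with 31.5%. tRNA-Gln-CTG fragments stood at 36132, 71355 and 41292 CPM in hypoxia 1, 2 and 3, against 39040.2, 60156.5 and 59457 CPM in normoxia 1, 2 and 3. tRNA-Gln-TTG fragments stood at 2065, 9624 and 8601 CPM in hypoxia 1, 2 and 3, against 2464, 10779.7 and 10037 CPM in normoxia 1, 2 and 3. The TTG sum was lower in hypoxia in all 3 pairs, but the differences within pairs were small beside the distance between the libraries numbered 1 and the rest, and the groups overlapped (two-sided exact permutation test, p = 0.5, n = 3 each). The members that fit both anticodons stood at 11702, 32756 and 37179 CPM in hypoxia 1, 2 and 3, against 12259, 32184 and 27604 CPM in normoxia 1, 2 and 3, with hypoxia higher in 2 of 3 pairs (exact p = 0.6).

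**Figure D1:**
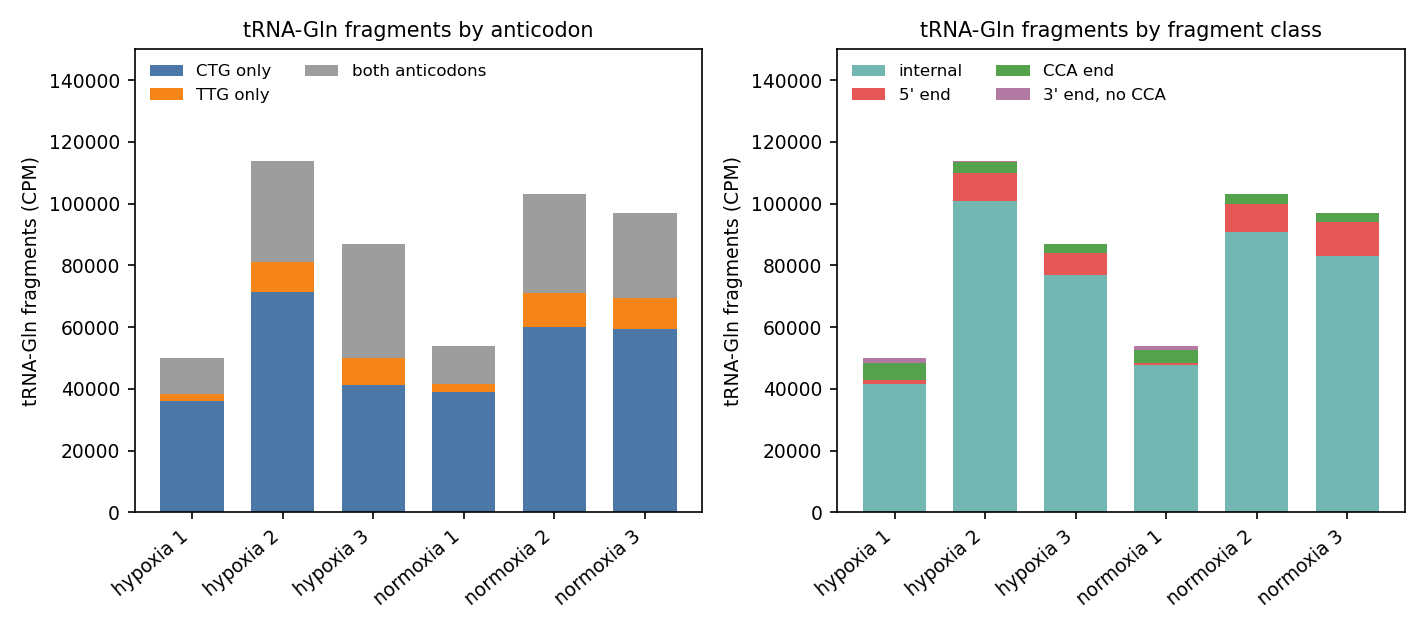
Stacked bars of tRNA-Gln fragment levels in CPM for each of the 6 libraries, split by anticodon on the left and by fragment class on the right. The libraries numbered 1 have the shortest bars of both groups, 49898 CPM in hypoxia 1 and 53763 CPM in normoxia 1, and internal fragments make up most of every bar on the right.

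No sum of tRNA-Gln fragments passed a test for hypoxia. When counts were summed over each set of tRNA families, edgeR's quasi-likelihood test gave a log2 fold change (hypoxia over normoxia) of −0.07 (SE 0.65) for tRNA-Gln-CTG, −0.20 (SE 1.02) for tRNA-Gln-TTG and 0.21 (SE 0.85) for members fitting both, each with a Benjamini-Hochberg adjusted p of 0.997. The share of all 112 tested sums called in either direction was 0%. Leaving out 1 library at a time moved the log2 fold change between −0.54 and 0.27 for tRNA-Gln-CTG, between −0.71 and 0.29 for tRNA-Gln-TTG and between −0.24 and 0.66 for members fitting both. Of the 9 tRNA-Gln sums split further by fragment class, 0 were called, as were 0% of all 276 such sums. At an unadjusted p under 0.05, 0 tRNA-Gln sums of either kind passed with edgeR. Of all sums by family set, 0% were higher and 0.893% lower at that level, and of the sums by set and class 0.725% were higher and 0.362% lower.

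Single members did not pass either. Of the 2285 members, 646 had enough counts to be tested and held 97.5% of member counts, and 1639 were not tested. edgeR's quasi-likelihood test called 0 of the 646 after Benjamini-Hochberg adjustment over all 6452 tested sequences, of which 0% were called. Without adjustment, 0 members had p under 0.05 in either direction, where 0.279% of all tested sequences were higher and 0.418% lower. DESeq2 and limma voom also called 0 members, and with either tool 0 members had an unadjusted p under 0.05. With the replicate number in the edgeR model the calls stayed at 0 of 646, against 0.155% of all tested sequences, and without adjustment 10 members were higher and 6 lower, or 1.55% and 0.929% of members, against 3.41% and 2.98% of all tested sequences. Without both libraries numbered 1, 0 of 758 tested members were called, against 0.0154% of all sequences tested there. Without adjustment 23 of those members were higher and 35 lower, or 3.03% and 4.62%, against 4.52% and 4.89% of all sequences.

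The log2 fold changes of the 646 tested members ran from −2.06 to 2.64 with a median of −0.12, beside a median of 0.02 over all tested sequences. Of these, 268 members were above 0 and 378 below, 27 were at 1 or more and 47 at −1 or less. The members' median depended on single libraries: leaving out 1 library at a time gave −0.48 (without normoxia 1) to 0.20 (without hypoxia 1), while the median over all tested sequences ran from −0.01 to 0.08. The CPM of the groups did not overlap for 6 members that were higher in hypoxia and 8 that were lower, or 0.929% and 1.24% of members, where 2.32% and 2.51% of all tested sequences did the same. All 6 and all 8 of them were internal fragments, as were 570 of the 646 tested members (88.2%). In all 3 pairs 68 members were higher in hypoxia and 85 lower, or 10.5% and 13.2% of members, against 15% and 13.4% of all tested sequences.

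**Figure D2:**
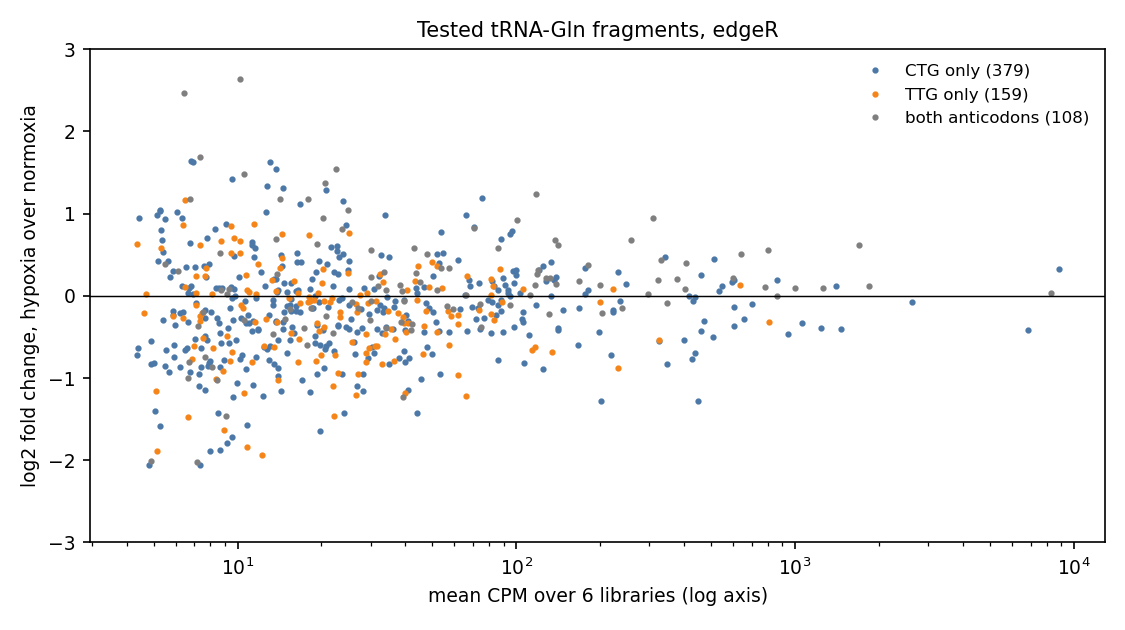
Each point is 1 of 646 tested tRNA-Gln members, with its mean level over 6 libraries in CPM on a log axis and its log2 fold change (hypoxia over normoxia, edgeR) on the vertical axis, coloured by anticodon. The values scatter around 0 between −2.06 and 2.64, most widely for members of low level, and 0 of them passed the adjusted test.

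Internal fragments made up most of tRNA-Gln in every library. They numbered 2110 members and held 83.6%, 88.8% and 88.3% of tRNA-Gln counts in hypoxia 1, 2 and 3, against 88.7%, 88.1% and 85.4% in normoxia 1, 2 and 3. The 115 members that start at the 5' end held 2.13%, 7.96% and 8.14% in hypoxia 1, 2 and 3, against 1.36%, 8.90% and 11.5% in normoxia 1, 2 and 3. The 5' share was thus lowest in the libraries numbered 1 of both groups, and neither class differed by oxygen beyond the replicate spread (two-sided exact permutation tests, p = 0.9 and 0.7, n = 3 each). The 19 members that end in CCA held 10.97%, 3.15% and 3.36% in hypoxia 1, 2 and 3, against 7.97%, 2.90% and 2.99% in normoxia 1, 2 and 3, and the 41 members that end at the last base before the tail held 0.0980% to 3.25%. Both 3' classes were higher in hypoxia in 3 of 3 pairs, yet the groups overlapped and the exact permutation test gave p = 0.5 for each share.

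Fragments of 15 to 17 bases held 25.8%, 29.5% and 37.4% of tRNA-Gln counts in hypoxia 1, 2 and 3, against 25.5%, 31.6% and 28.6% in normoxia 1, 2 and 3. Fragments of 30 to 45 bases, the length range of pieces cut once in the anticodon loop, held 10.8%, 15.3% and 15.5% in hypoxia 1, 2 and 3, against 10.5%, 16.6% and 20.7% in normoxia 1, 2 and 3. Both ranges overlapped between the groups. Over the 22 shares of class, length, position and anticodon that were compared between hypoxia and normoxia, the smallest exact permutation p was 0.2 and every adjusted p was 1.

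The fragments started mainly in the D loop and ended mainly in the anticodon loop or in the 3' strand of the anticodon stem. Starts in the D loop, positions 14 to 21, took 37.2%, 44.8% and 51.6% of placed counts in hypoxia 1, 2 and 3, against 40.8%, 52.5% and 52.7% in normoxia 1, 2 and 3. Ends in the 3' strand of the anticodon stem, positions 39 to 43, took 50.4%, 47.98% and 27.6% in hypoxia 1, 2 and 3, against 55.01%, 40.5% and 40.4% in normoxia 1, 2 and 3. Ends in the anticodon loop took 8.24%, 30.05% and 44.1% in hypoxia 1, 2 and 3, against 9.12%, 36.6% and 37.9% in normoxia 1, 2 and 3. Ends in the anticodon loop were thus rarest, and ends in the stem most frequent, in the library numbered 1 of each group.

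Within these regions a few positions took most ends. Position 33, the base just 5' of the anticodon, was the last base of 5.19%, 22.03% and 31.8% of placed counts in hypoxia 1, 2 and 3, against 5.53%, 24.6% and 25.4% in normoxia 1, 2 and 3. Position 41 was the last base of 42.7%, 41.4% and 21.2% in hypoxia 1, 2 and 3, against 46.4%, 33.4% and 32.2% in normoxia 1, 2 and 3. The groups overlapped at both positions, with exact permutation p = 1 for ends at 33 and p = 0.8 for ends at 40 and 41 together (n = 3 each). Ends at positions 53 to 55, the first bases of the T loop, took 13.1%, 10.7% and 15.3% in hypoxia 1, 2 and 3, against 13.7%, 10.7% and 8.42% in normoxia 1, 2 and 3. Almost no fragment ended before the anticodon stem: ends at position 26 or before took 0.371% to 0.673% of placed counts over the 6 libraries. The table holds no sequence under 15 bases, so only fragments starting before the D loop could end there, which limits this share.

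The starts are given apart for each end. The table holds no sequence under 15 bases, so a fragment ending at 33 could not start after 19. Part of the contrast between the ends was therefore set in advance. Among fragments ending at 33, a start at 19 was the most frequent in all 6 libraries, with 29.8%, 53.1% and 48.8% in hypoxia 1, 2 and 3, against 35.8%, 51.96% and 49.96% in normoxia 1, 2 and 3. Among fragments ending at 40 or 41, a start at 24 held 26.9%, 38.8% and 22.5% in hypoxia 1, 2 and 3, against 27.5%, 26.5% and 22.4% in normoxia 1, 2 and 3. A start at 21 held 18.96%, 19.2% and 25.96% of the same fragments in hypoxia 1, 2 and 3, against 19.2%, 28.5% and 26.3% in normoxia 1, 2 and 3. The order of these starts 24 and 21 changed between libraries within both groups, so neither was the main start throughout.

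**Figure D3:**
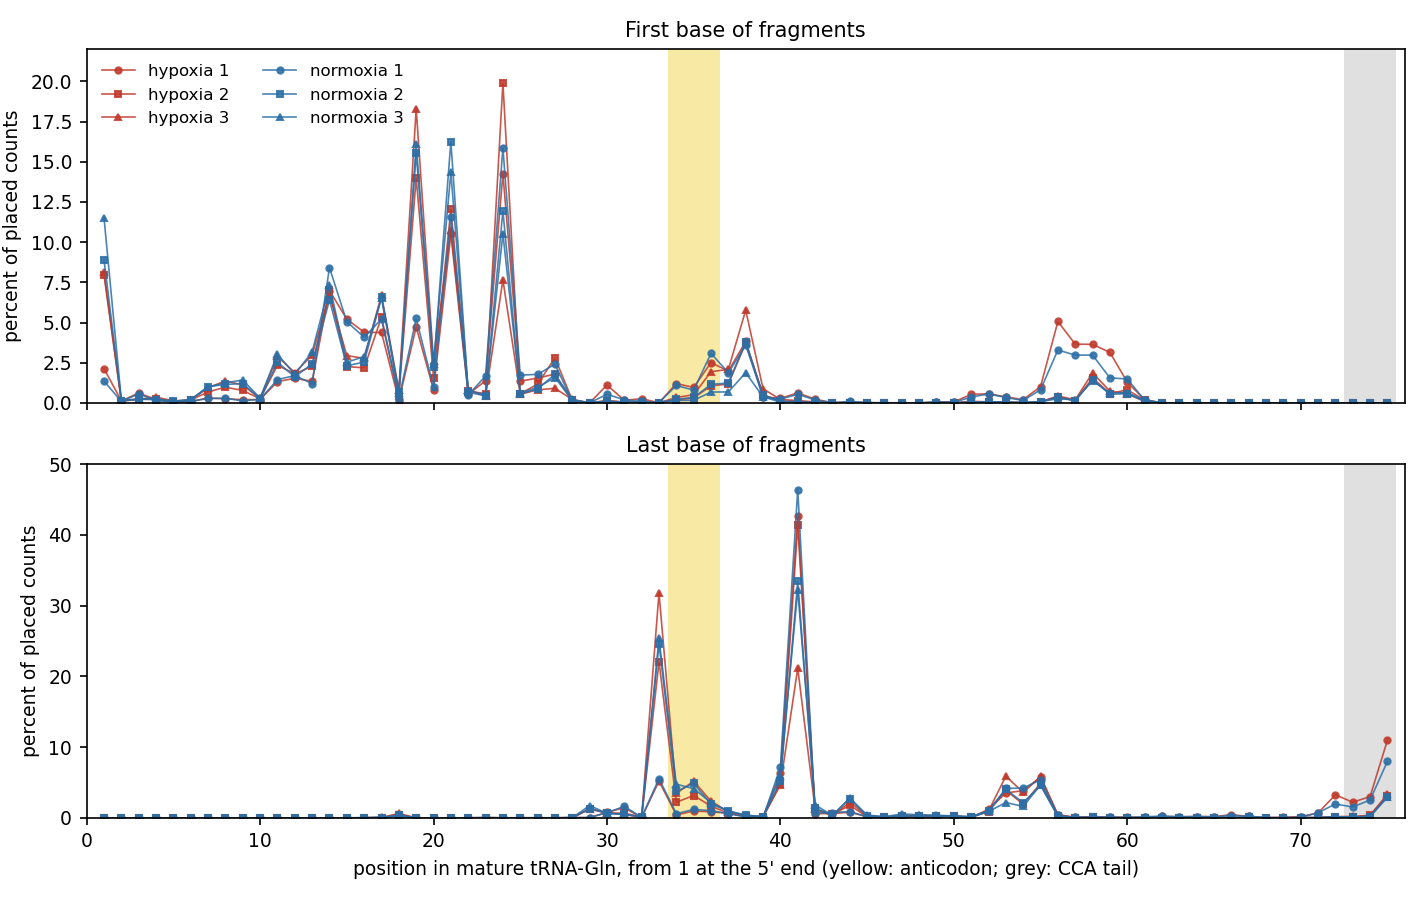
Percent of placed tRNA-Gln counts by position of the first base (upper panel) and of the last base (lower panel), 1 line per library, hypoxia in red and normoxia in blue, with the anticodon shaded yellow and the CCA tail grey. Last bases pile up at 33 and 41, where the values range from 5.19% to 31.8% and from 21.2% to 46.4%, and lines of both colours cross.

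Fragments that start at the 5' end and stop at positions 33 to 36, within the anticodon loop, were present in 4 libraries and were not detected in the other 2. Of the fragments starting at position 1, those ending at 33 to 36 made up 0%, 22.95% and 27.9% in hypoxia 1, 2 and 3, against 0%, 23.5% and 22.4% in normoxia 1, 2 and 3. The first value is 0 of 543 counts in hypoxia 1, which allows a share of up to 0.552%, and the normoxia 1 value is 0 of 242 counts, which allows up to 1.24%. Internal fragments ending at 33 were still counted in those libraries, with 1321 counts in hypoxia 1 and 984 in normoxia 1. The difference thus follows the library number and not the oxygen level, and its cause was not tested.

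At the 3' end, most fragments that reach the last base of the gene or go beyond it carried the whole tail. The full CCA was present in 56.5%, 83.0% and 83.5% of them in hypoxia 1, 2 and 3, against 57%, 86.6% and 86.9% in normoxia 1, 2 and 3. The share was lower in hypoxia in 3 of 3 pairs, with overlapping groups (two-sided exact permutation test, p = 0.5, n = 3 each). Fragments without any tail base took 16.7% in hypoxia 1 and 14% in normoxia 1, and 2.85% to 4.55% in the other libraries. Starts at 56 to 59, in the last bases of the T loop, held 15.5%, 2.65% and 3.22% of placed counts in hypoxia 1, 2 and 3, against 10.8%, 2.47% and 2.45% in normoxia 1, 2 and 3.

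The anticodons differed in where their fragments ended. Members that hold position 34 can be told apart by its letter, and these gave 1017, 20362 and 12339 TTG counts in hypoxia 1, 2 and 3 and 796, 20191 and 13256 in normoxia 1, 2 and 3, beside 10945 to 166404 CTG counts per library. Ends at position 36, the last base of the anticodon, made up 14.6% to 18.2% of TTG fragments and 0.268% to 2.06% of CTG fragments over the 6 libraries. Ends at 37 to 39 made up 7.16% to 9.38% of TTG fragments and 0.685% to 1.58% of CTG fragments. Ends at 53 to 55, in the T loop, made up 23.2% to 32.2% of TTG fragments and 3.88% to 5.87% of CTG fragments. In the other direction, ends at 40 and 41 made up 26.2% to 39.6% of TTG fragments and 57.6% to 84.9% of CTG fragments. At the remaining ends the values of the anticodons overlapped. TTG was higher in 2 of 6 libraries at 34, in 2 at 35, in 1 at 42 to 52 and in 6 at 56 or later. Ends at 34 made up 1.38% to 2.76% of TTG fragments and 0.604% to 8.24% of CTG fragments.

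For ends at 36, at 37 to 39, at 53 to 55 and at 40 and 41, the values of the anticodons did not overlap. The difference had the same sign in 6 of 6 libraries for each of these. The mean difference, TTG minus CTG, was 15.6 percentage points (SD 1.66, n = 6 libraries) for ends at 36, 7.01 points (SD 0.629) for ends at 37 to 39, 23.9 points (SD 3.81) for ends at 53 to 55 and −40.8 points (SD 14.5) for ends at 40 and 41. Each had a two-sided exact sign-flip permutation p of 0.0312 over 6 libraries, the smallest this test can give, and an adjusted p of 0.0625 over 14 tests, which misses the threshold of 0.05. The libraries numbered 1 deviated together, so the test was also run over the 3 replicate numbers, each the mean of its 2 libraries. Every one of the 4 differences kept its sign in 3 of 3, with an exact sign-flip p of 0.25, the smallest possible with 3. These tests were chosen after the values were seen. The difference between anticodons was not larger or smaller in hypoxia beyond the replicate spread (exact permutation p from 0.2 to 0.8 for the 4 ends, n = 3 each): for ends at 36 it was 15.9 points in hypoxia and 15.3 points in normoxia, and for ends at 53 to 55 it was 26.04 points in hypoxia and 21.7 points in normoxia.

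**Figure D4:**
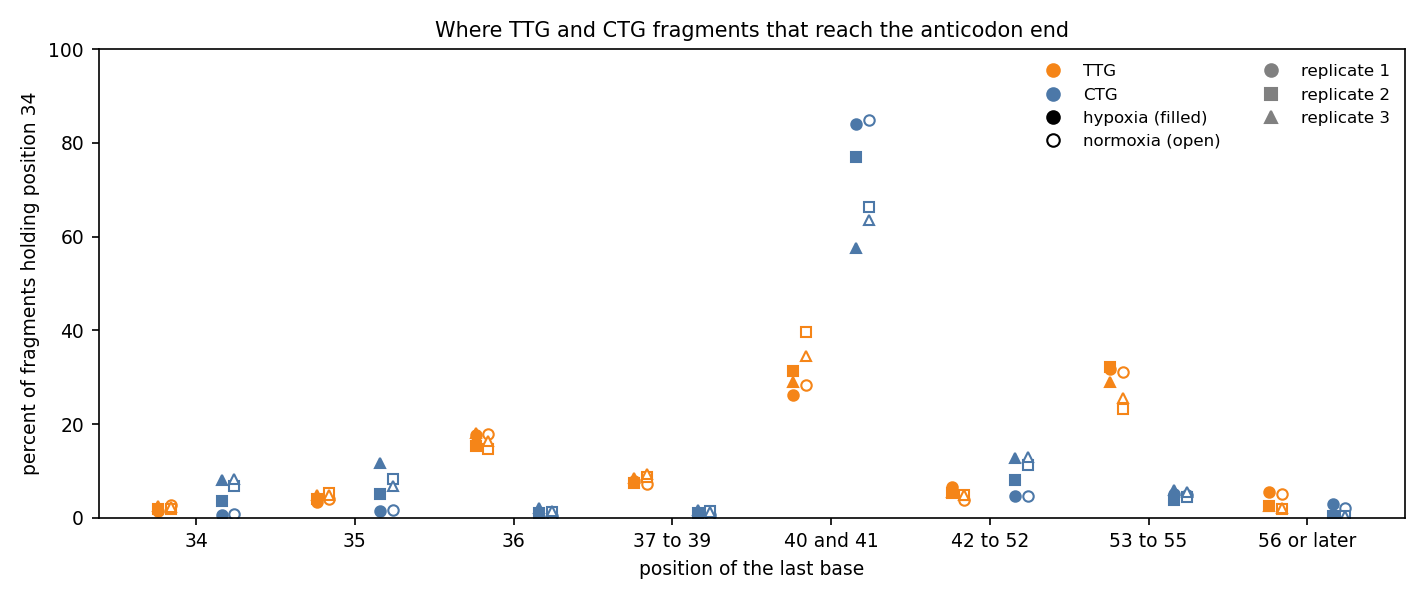
Percent of fragments holding position 34 that end at each range of positions, TTG in orange left of CTG in blue, filled points for hypoxia and open points for normoxia, 1 point per library. TTG points lie above all CTG points at 36 (14.6% to 18.2%) and at 53 to 55 (23.2% to 32.2%), and below them at 40 and 41.

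Fragments that start at the 5' end can also be told apart, because the letter at position 4 was T in 100% of counts of CTG members and C in 100% of counts of TTG members that cover it. In the libraries numbered 2 and 3, ends at 33 made up 60.9% to 65.1% of the TTG 5' fragments and 2.81% to 6.25% of the CTG 5' fragments. Ends at 40 and 41 made up 6.49% and 5.83% of TTG 5' fragments in hypoxia 2 and 3 and 6.88% and 5.66% in normoxia 2 and 3, beside 45.7% to 60.1% of the CTG 5' fragments in all 6 libraries. The members from 1 to 33 and from 1 to 41 printed above are the leading examples of these forms. The libraries numbered 1 had too few TTG 5' fragments to compare, with 36 counts in hypoxia 1 and 14 in normoxia 1.

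The share of CTG among fragments given to 1 anticodon was 94.6%, 88.1% and 82.8% in hypoxia 1, 2 and 3, against 94.1%, 84.8% and 85.6% in normoxia 1, 2 and 3. It was highest in the libraries numbered 1 and did not differ by oxygen beyond the replicate spread (two-sided exact permutation test, p = 0.9, n = 3 each). Restricting the count to fragments that cover the anticodon gave 93.6%, 88.8% and 81.0% in hypoxia 1, 2 and 3, against 93.5%, 84.6% and 85.8% in normoxia 1, 2 and 3.

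Counts were concentrated in few members. Ranked by mean CPM, the first member held 10.8% of tRNA-Gln counts pooled over the libraries, and the second held more, 11.3%. The first 3 together held 30.1%, the first 10 held 44.1% and the first 100 held 80.3%. The first, from 24 to 41, begins in the 3' strand of the D stem and ends in the 3' strand of the anticodon stem. It stood at 5899.9, 19148 and 4243 CPM in hypoxia 1, 2 and 3, against 7086, 9120.1 and 7427 CPM in normoxia 1, 2 and 3. Its level in hypoxia 2 was above all others and the other 2 hypoxia libraries lay below all normoxia libraries, so the groups overlapped (log2 fold change 0.33, SE 0.76, edgeR adjusted p = 0.9999). With the replicate number in the model its log2 fold change was −0.01 (SE 0.28).

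The second, from 19 to 33, spans from the D loop to the base before the anticodon and fits both anticodons. It stood at 717, 12235 and 12414 CPM in hypoxia 1, 2 and 3, against 970.4, 12060.2 and 11220.3 CPM in normoxia 1, 2 and 3. Its level followed the library number far more than oxygen (log2 fold change 0.03, SE 1.27, edgeR adjusted p = 0.9999). The member from 17 to 33, which differs from it by 2 further bases at the 5' end, stood at 398, 2320 and 3058 CPM in hypoxia 1, 2 and 3, against 466, 2468 and 2311 CPM in normoxia 1, 2 and 3. The same libraries were lowest for both.

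The third, from 21 to 41, stood at 4288, 8773 and 4889 CPM in hypoxia 1, 2 and 3, against 5145, 9521 and 8524 CPM in normoxia 1, 2 and 3. It was lower in hypoxia in 3 of 3 pairs, with overlapping groups (log2 fold change −0.41, SE 0.67, edgeR adjusted p = 0.9999; with the replicate number modelled −0.40, SE 0.25, adjusted p = 0.856). The member from 14 to 41, which begins at the first base of the D loop, stood at 2576, 3706 and 1326 CPM in hypoxia 1, 2 and 3, against 3525, 2249 and 2405 CPM in normoxia 1, 2 and 3. Its groups overlapped as well, with hypoxia 2 the highest and hypoxia 3 the lowest of all.

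The CTG 5' fragment from 1 to 41 stood at 382, 2146.5 and 1340.2 CPM in hypoxia 1, 2 and 3, against 218, 2198 and 2450.1 CPM in normoxia 1, 2 and 3. The TTG 5' fragment from 1 to 33 had 0 counts in hypoxia 1 and normoxia 1, and stood at 1182 and 1005 CPM in hypoxia 2 and 3, against 1196 and 1449.9 CPM in normoxia 2 and 3. Both were lower in hypoxia 2 and 3 than in the normoxia library of the same number. Neither passed edgeR's test (log2 fold changes −0.40, SE 1.07, and −0.32, SE 2.10, both adjusted p = 0.9999). The TTG fragment from 24 to 55, which begins at the base where the leading CTG member begins, stood at 178, 1083 and 765 CPM in hypoxia 1, 2 and 3, against 160, 809 and 822 CPM in normoxia 1, 2 and 3.

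The leading 3' member, from 58 to 75 with A at position 68, stood at 697, 1066 and 1019 CPM in hypoxia 1, 2 and 3, against 562, 999 and 824 CPM in normoxia 1, 2 and 3. Its counterpart with G at that position fits both anticodons and stood at 241, 423 and 362 CPM in hypoxia 1, 2 and 3, against 257, 299 and 345 CPM in normoxia 1, 2 and 3. Of the 10 members printed at the start, these varied least between libraries, and the hypoxia level of the first was higher in 3 of 3 pairs (log2 fold change 0.19, SE 0.60, edgeR adjusted p = 0.9999). The same 3' piece from tRNA-Gln-CTG without its tail, from 58 to 72, stood at 276, 73.3 and 96.3 CPM in hypoxia 1, 2 and 3, against 248, 56.8 and 50.3 CPM in normoxia 1, 2 and 3. It was highest in the libraries numbered 1, where the tailed piece was lowest. The leading members that end just before the tail held 9 counts over all libraries for tRNA-Gln-TTG and 36 for both anticodons, and the leading member of both anticodons with at least 30 bases, from 36 to 73, held 11, too few to be tested.

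The members with the smallest unadjusted p were of low level, and they are given with their sequences because each has a start or end not yet described.
Member 30 to 44: gactCTGaatccagc
Member 12 to 41: gtaatggtgagcactctggactCTGaatcc
Member 56 to 70: aaatctcggtggaac
Member 31 to 45: actTTGaatccagcg
Member 20 to 54: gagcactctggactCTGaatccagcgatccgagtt
Member 15 to 32: atggttagcactctggac
The member from 30 to 44 stood at 17.6, 29.3 and 12.8 CPM in hypoxia 1, 2 and 3, against 12.1, 7.66 and 3.07 CPM in normoxia 1, 2 and 3. The member from 12 to 41 stood at 7.84, 13.3 and 10.5 CPM in hypoxia 1, 2 and 3, against 3.02, 3.16 and 3.68 CPM in normoxia 1, 2 and 3. In both, every hypoxia library lay above every normoxia library (log2 fold changes 1.54, SE 0.78, and 1.63, SE 0.83). The member from 56 to 70, which begins in the T loop, stood at 41.1, 20.7 and 35.6 CPM in hypoxia 1, 2 and 3, against 24.2, 12.6 and 9.20 CPM in normoxia 1, 2 and 3, and its groups overlapped. The lower members rested on few counts: the member from 31 to 45 had 2, 3 and 4 counts in hypoxia 1, 2 and 3, against 2, 17 and 16 counts in normoxia 1, 2 and 3, which is 3.92, 1.17 and 2.33 CPM in hypoxia and 6.05, 7.66 and 9.82 CPM in normoxia. The member from 20 to 54 had 0, 5 and 5 counts in hypoxia 1, 2 and 3, against 2, 25 and 11 in normoxia 1, 2 and 3. The member from 15 to 32 had 1, 15 and 0 counts in hypoxia 1, 2 and 3, against 4, 14 and 27 in normoxia 1, 2 and 3. Every hypoxia library lay below every normoxia library in CPM for these 3. The smallest unadjusted p among all tested members was 0.0772, for the member from 31 to 45 (edgeR, adjusted p = 0.9999), so none of the 6 changed by the test.

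The members also varied in their letters at a few positions. Letters TT at positions 19 and 20 in the D loop were carried by 92.9% to 94.1% of fragments covering that stretch over the 6 libraries, CT by 3.98% to 5.13% and TG by 0.885% to 2.09%. The variants CT and TG were seen in CTG members. Every joined TTG sequence carries TT there, so a TTG member with another letter that reached the anticodon could not be placed. The 0% found for TTG members was therefore largely set in advance. Among fragments starting at position 1, the 6 letters ggttcc of tRNA-Gln-CTG led with 93.4%, 77.9% and 76.4% in hypoxia 1, 2 and 3, against 94.2%, 77.8% and 79.8% in normoxia 1, 2 and 3. The TTG start ggcccc made up 3.13%, 18.8% and 20.3% in hypoxia 1, 2 and 3, against 2.07%, 18.3% and 18.3% in normoxia 1, 2 and 3. The start ggtccc of the joined TTG sequence printed at the start took 3.50%, 3.31% and 3.31% in hypoxia 1, 2 and 3, against 3.72%, 3.94% and 1.88% in normoxia 1, 2 and 3. It was the rarer TTG start in the libraries numbered 2 and 3. In those numbered 1 its share was above that of ggcccc. TTG 5' fragments held only 36 counts in hypoxia 1 and 14 in normoxia 1, too few to compare the starts. The shares of ggttcc and ggcccc again parted the libraries numbered 1 from the others. At position 68 in the 3' strand of the acceptor stem, the letter A was carried by 69.4%, 71.1% and 70.1% of CCA-ended fragments in hypoxia 1, 2 and 3, against 67.7%, 69.9% and 70.2% in normoxia 1, 2 and 3, with G in the rest, so this make-up was nearly even across libraries.

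tRNA-Gln differed from like tRNAs in the make-up of its fragments. Internal fragments took 83.6% to 88.8% of tRNA-Gln counts over the 6 libraries, against 47.7% to 52.1% for nuclear tRNA-Glu, the tRNA of the chemically close amino acid glutamate, 7.73% to 38.4% for mitochondrial tRNA-Gln and 28.3% to 55.4% for all other nuclear tRNAs. The group of all other nuclear tRNAs includes tRNA-Glu, so the comparison with it overlaps that with tRNA-Glu. Fragments with the 5' end took 1.36% to 11.5% of tRNA-Gln counts, against 45.5% to 50.3% for nuclear tRNA-Glu, 61.3% to 92.1% for mitochondrial tRNA-Gln and 38.2% to 65.9% for the other nuclear tRNAs. Both differences had the same sign in 6 of 6 libraries against each of the 3 (two-sided exact sign-flip permutation test, p = 0.0312 each, the smallest possible with 6 libraries, adjusted p = 0.0469 over 15 tests). This test takes the 6 libraries as independent, although those numbered 1 deviated together. Over the 3 replicate numbers, each the mean of its 2 libraries, the signs were the same in 3 of 3 and the exact p was 0.25, the smallest possible with 3, so the passing values rest on that assumption. The mean difference in internal share was 37.6 percentage points (SD 1.53, n = 6) from nuclear tRNA-Glu, 66.8 points (SD 14.3) from mitochondrial tRNA-Gln and 48.1 points (SD 11.9) from other nuclear tRNAs.

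Fragments of 30 bases or longer took 10.5% to 20.7% of tRNA-Gln counts, against 22.3% to 39.2% for nuclear tRNA-Glu and 54.3% to 88.6% for mitochondrial tRNA-Gln, lower in 6 of 6 libraries in both comparisons (exact sign-flip permutation test over 6 libraries, adjusted p = 0.0469 each, and p = 0.25 over the 3 replicate numbers). Against the other nuclear tRNAs, at 13.8% to 21.6%, the difference did not hold up (exact p = 0.25). The level of tRNA-Gln relative to nuclear tRNA-Glu, as the difference of log2 CPM, averaged −0.99 ± 0.31 in the hypoxia group and −0.76 ± 0.33 in the normoxia group (SD, n = 3 each, two-sided exact permutation p = 0.5). Relative to mitochondrial tRNA-Gln it was 4.22 ± 0.27 in hypoxia and 3.69 ± 0.53 in normoxia (exact permutation p = 0.2). Relative to the other nuclear tRNAs it was −3.38 ± 0.57 in hypoxia and −3.33 ± 0.49 in normoxia (exact permutation p = 0.9). Each of these differences between the groups lay within the replicate spread.

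**Figure D5:**
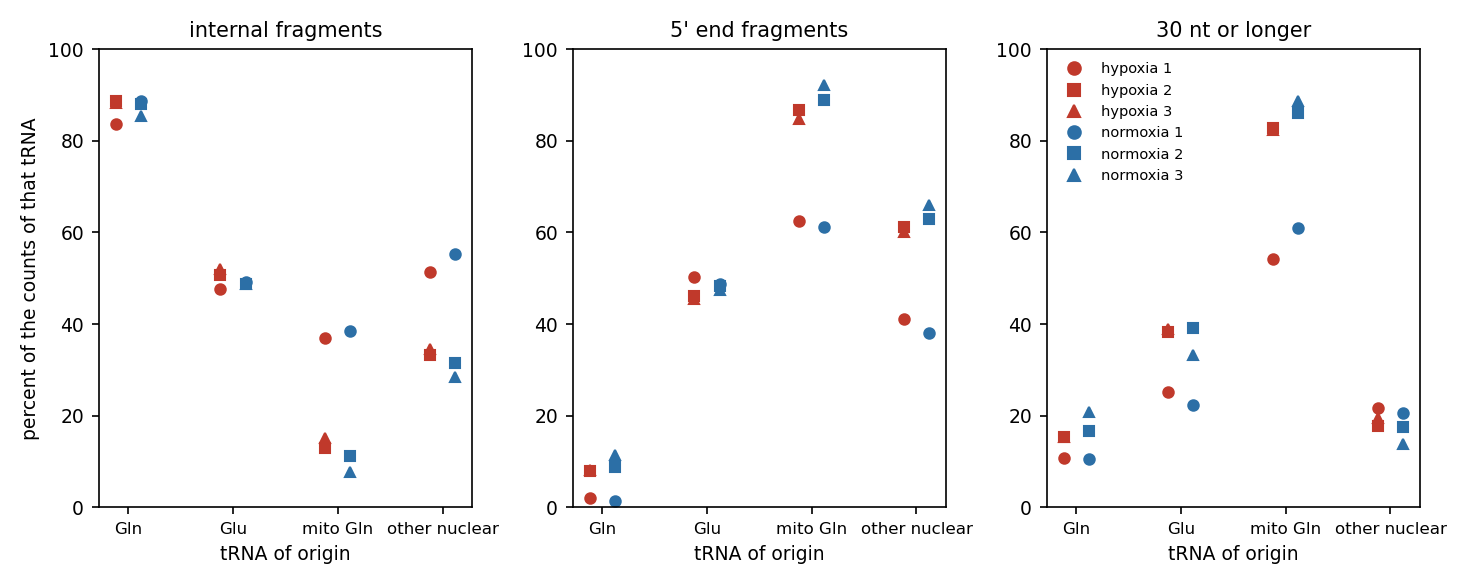
Percent of counts in internal fragments, in 5' end fragments and in fragments of 30 bases or longer, for tRNA-Gln, nuclear tRNA-Glu, mitochondrial tRNA-Gln and other nuclear tRNAs, 1 point per library, hypoxia in red left of normoxia in blue. The tRNA-Gln points lie between 83.6% and 88.8% for internal fragments, above all points of the other 3, and below all of them for 5' end fragments.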

How the data were processed

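Small RNA of 6 libraries was deposited by the authors as 1 table of raw counts per distinct sequence of 15 to 45 bases, not normalized. Per the submitters' processing notes the build is mm10. No aligner, annotation tool, tRNA reference or filter is given in the sources used here. The table names the tRNAs of each sequence and a fragment class: starting at the 5' end, ending in CCA, ending just before the tail, or internal. Fragments that stop within the tail are in the internal class. All 6 sample columns were used, with 0 others present. The sample titles gave the groups and the replicate numbers. The members, lists and tests were chosen with earlier results of these data known.

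Levels are CPM of all counts in the table. edgeR 4.0.16 (quasi-likelihood test, TMM scaling, filterByExpr, group as the term) in R 4.3.3 was fitted on every sequence, on sums by tRNA family set and on sums by family set and class, with Benjamini-Hochberg adjustment over each whole table and a threshold of 0.05. The SE given with edgeR is derived from the test, as the absolute log2 fold change divided by the square root of its F value. DESeq2 1.42.0 and limma 3.58.1 were alternatives. The fits were tested on simulated data with less spread between libraries than the main fit on every sequence found here. That test therefore does not show which changes the fits could miss. Single values were compared with exact permutation tests (SciPy 1.17.1). Libraries with the same number deviated together from their group means over all tested sequences (correlations 0.81, 0.53 and 0.45 for numbers 1, 2 and 3; −0.03 among numbers 2 and 3 alone), so fits with the replicate number as a block were added.

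Positions came from 12 sequences of 72 bases, joined from deposited 5' fragments of at least 36 bases and 3' end fragments of at least 35 bases that overlap by at least 3. Some of the joined TTG sequences rested on a fragment with 1 count. Gene positions are from RefSeq on GRCm38, the assembly of mm10. The members named are the 5 of highest mean CPM, the most abundant of each anticodon group in each class and at 30 bases or longer, any past the adjusted threshold with or without the block (0), and the 3 higher and 3 lower with the smallest unadjusted p.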

Additional observations from a re-analysis of the deposited data

How the results depend on the processing

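No tRNA-Gln member or sum was called under any alternative tried, so only sizes and directions changed. Over 56 values, 580 of 689 alternatives kept the direction and 109 turned it. Of the 109, 92 came from leaving out 1 library and touched 41 values. The cause was not tested. The 580 include alternatives for the number of members called, 9 with all libraries or other settings and 6 with 1 library left out. That number stayed at 0 and had no direction to turn. The log2 fold change of the tRNA-Gln-CTG sum became 0.0611 with DESeq2 size factors, 0.0611 with DESeq2 and 0.0525 with the replicate block and DESeq2 size factors, and that of the TTG 5' end sum became 0.0291 with the last of these. The member from 24 to 41 turned to −0.0149 with limma voom, −0.0121 with the replicate block and −0.0492 with block and size factors, and the member from 19 to 33 to −0.0907, −0.0919 and −0.13. The member from 17 to 33 turned to −0.00777 with block and size factors, and the member from 14 to 41 to 0.0298 with no filter and 0.0612 without both libraries numbered 1. The block changed no other direction and no call. Without both libraries numbered 1, hypoxia minus normoxia was 294.7 CPM for all tRNA-Gln and 1.81 percentage points for internal fragments. Counting each distinct sequence once gave 0.152 points for the 5' end and −0.0826 points for the CCA end. Sequences shared with other tRNAs numbered 0, so the alternative that adds them gave the same values.

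With 1 library left out at a time, hypoxia minus normoxia of all tRNA-Gln ran from −16540.4 to 15743.4 CPM, and its log2 level relative to other nuclear tRNAs from −0.33 to 0.26. The log2 fold changes of sums ran from −0.54 to 0.27 for CTG, −0.24 to 0.66 for both anticodons, −0.71 to 0.29 for TTG, −0.70 to 0.33 for CTG internal, −0.23 to 0.73 for internal of both anticodons, −0.53 to 1.60 for CTG 3' end, −0.82 to 1.57 for 3' end of both anticodons, −0.88 to 0.22 for CTG 5' end, −0.65 to 0.34 for TTG internal, −0.77 to 0.38 for TTG 5' end. Differences in share, in percentage points, ran from −1.48 to 1.15 for internal fragments, −4.13 to 0.943 for 5' end, −1.37 to 2.88 for CCA end, −0.569 to 1.07 for 3' end without CCA, −0.894 to 4.89 for length 15 to 17 nt, −1.9 to 4.13 for length 18 to 22 nt, −4.83 to 0.311 for length 30 to 45 nt, −5.88 to 2.98 for start at positions 11 to 20, −1.83 to 4.29 for start at position 24, −1.04 to 8.85 for start at position 37 or later, −5.31 to 8.42 for end at position 33, −4.04 to 0.88 for end in the anticodon, positions 34 to 36, −7.44 to 4.19 for end at positions 40 and 41, −7.91 to 1.84 for covers the anticodon, −12.4 to 6.44 for end with full CCA, −5.98 to 10.1 for 5' start, end at 33 to 36, −12.2 to 4.51 for 5' start, end at 40 and later, −2.7 to 3.31 for CTG of CTG plus TTG, −3.06 to 3.26 for CTG of fragments covering the anticodon. Log2 fold changes of members ran from −0.90 to 0.71 for the member from 24 to 41 (CTG), −0.52 to 0.60 for the member from 19 to 33, −0.71 to 0.21 for the member from 14 to 41, −0.45 to 0.65 for the member from 17 to 33, −1.06 to 0.0923 for the member from 1 to 41, −0.15 to 0.54 for the member from 58 to 75 (CTG), −0.0195 to 1.07 for the member from 58 to 72, −0.42 to 0.65 for the member from 24 to 55 (TTG), −0.90 to 0.27 for the member from 1 to 33, −0.094 to 0.53 for the member from 58 to 75 (both anticodons). Counts of 5' fragments were lowest in the libraries numbered 1, with 543 in hypoxia 1 and 242 in normoxia 1. The part that depth plays in this was not tested. Chosen after the data were seen were the block with size factors for members and class sums, the block without both libraries numbered 1, leaving out those libraries for shares and relative levels, the CTG share of fragments that cover the anticodon, and sign-flip tests over replicate numbers.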

Other observations

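The exact match to joined sequences left out 50 members with 251 counts over all 6 libraries. Fragments starting with ggaccc at position 1 were seen in 0% of 5' fragments in the 3 hypoxia libraries and in 0.00982% and 0.00549% in normoxia 2 and 3. The ggaccc fragments held 3 counts in all, too few to compare the groups. Neither set was given to a gene.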
